A study of Mus musculus with 9 samples.

Results

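The zona pellucida genes Zp1, Zp2 and Zp3 and the oocyte-secreted factor genes Gdf9, Bmp15 and Oosp1 were followed in mouse ovary at 3 ages. They were chosen by name, as the rows of the deposited gene tables that carry these 6 symbols, out of 55487 rows in all. The 9 RNA-seq libraries came from ovaries of C57BL/6 mice with an oocyte-specific PIK3CA* gene knock-in, with 3 libraries for each collection age (postnatal day 8, postnatal day 50 and postnatal day 65). The series title and design describe the tissue as ovaries and as tumor samples. All 3 ages carry the knock-in, so every comparison is between ages, and ovaries without it were not analysed here. The sources used here do not name the promoter or Cre line that confines the knock-in to oocytes. Replicates are numbered, but whether each is a different animal is left unsaid, and the p-values therefore measure only the spread among these libraries, possibly a technical one.

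The zona pellucida is the glycoprotein coat that a growing oocyte secretes around itself. In mouse, ZP2 and ZP3 form its filaments and ZP1 cross-links them, and sperm bind to this coat. GDF9 and BMP15 are oocyte-made ligands of the TGF-beta family that reach the surrounding granulosa cells. There they signal through the type II receptor BMPR2 with the type I receptors TGFBR1 (also called ALK5) and BMPR1B (also called ALK6), and on through SMAD proteins. Oosp1 encodes a protein secreted by oocytes. FIGLA, a basic helix-loop-helix factor that binds E-boxes, and the homeobox factor NOBOX are known as activators of zona and oocyte-secreted factor genes.

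By the deposited coordinates, on GRCm38, Zp1 lies on chromosome 19 from 10914287 to 10920632 and Oosp1 on the same chromosome from 11667460 to 11691150. Zp2 lies on chromosome 7 from 120126772 to 120145291, and Zp3 on chromosome 5 from 135980099 to 135988624. Gdf9 lies on chromosome 11 from 53431023 to 53437904, and Bmp15 on the X chromosome from 6314107 to 6320721. Zp3 and Gdf9 are on the plus strand and the others on the minus strand. None of the 6 overlaps another gene in the GENCODE M21 annotation, but Gdf9 is separated from Uqcrq, on the opposite strand, by 191 bases.

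The sequence upstream of the start of Zp3, Bmp15 and Oosp1 is shown, from RefSeq on GRCm38.p6, since promoter sequence was at hand for these genes only. The promoters of Zp1, Zp2 and Gdf9 are not shown. Each is 5′ to 3′ on the gene's own strand and ends before the first annotated transcribed base. Capitals mark the E-box letters CANNTG and, in Bmp15 only, TAATTA. Of the motifs that NOBOX binds in mouse, only TAATTG and TAATTA were searched.
Zp3, chr5:135979855-135980098, plus strand: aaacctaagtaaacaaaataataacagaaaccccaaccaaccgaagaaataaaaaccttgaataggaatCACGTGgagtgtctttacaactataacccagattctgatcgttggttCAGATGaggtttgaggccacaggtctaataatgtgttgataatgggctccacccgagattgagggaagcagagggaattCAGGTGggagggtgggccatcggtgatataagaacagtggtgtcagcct
Bmp15, chrX:6320725-6320974, minus strand: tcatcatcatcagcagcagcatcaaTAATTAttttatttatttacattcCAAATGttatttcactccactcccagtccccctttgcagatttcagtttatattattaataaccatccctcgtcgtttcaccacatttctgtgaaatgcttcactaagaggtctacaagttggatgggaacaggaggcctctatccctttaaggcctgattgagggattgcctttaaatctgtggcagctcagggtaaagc
Oosp1, chr19:11691151-11691301, minus strand: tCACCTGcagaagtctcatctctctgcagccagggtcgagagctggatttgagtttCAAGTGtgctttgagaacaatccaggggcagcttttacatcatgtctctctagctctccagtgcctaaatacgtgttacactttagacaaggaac
The full window of 300 bases, 250 before to 50 after the RefSeq start and read on both strands, held 4 E-boxes in Zp3, 1 in Bmp15 and 5 in Oosp1. At least 1 CANNTG was present in 72.3% of 32851 mouse windows, at least 4 in 6.49% and at least 5 in 2.10%. TAATTG or TAATTA was present in 12.4%. The E-boxes of Zp3 started at positions -181, -134, -55 and 7 from the RefSeq start, and the TAATTA of Bmp15 at position -225. Of the 5 E-boxes of Oosp1, 2 lie in the stretch shown. Those at -93, -59 and -48 lie past its end, inside the deposited coordinates of the gene. No marked motif overlaps another in the stretches shown. A match describes the letters only.

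Total expected counts per library ran from 14116908 to 18868831, and 21305 to 26084 genes had a count above 0. In a single library, a count of 0 allows a level of up to 0.153 to 0.249 CPM (3 counts over the TMM-scaled library size, counting error only). CPM values, counts scaled to library size, are normalized with TMM factors and serve to compare 1 gene between libraries, and TPM values, which are per length, serve to compare genes with each other. Some libraries stood apart from their own age. Day 8 replicate 1 had 11.78% of its counts in ribosomal protein genes, against 4.59% and 6.07% in the other day 8 libraries. The day 65 libraries had 10.27 to 13.26% and the day 50 libraries 3.19 to 3.74%. Day 65 replicate 3 held far more of most oocyte transcripts than the other day 65 libraries, and results that rest on it are given with and without it.

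The 3 zona genes were among the abundant transcripts of the day 8 ovary and were at low levels at day 50. At day 65 they were close to undetected in 2 of the 3 libraries. Gdf9 also fell after day 8, but in TMM-normalized CPM all 3 day 65 libraries lay slightly above the day 50 libraries. In TPM, day 65 replicates 1 and 2 lay below them. Bmp15 and Oosp1 were low from the start and at day 65 were found mainly in replicate 3.

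**Figure D1:**
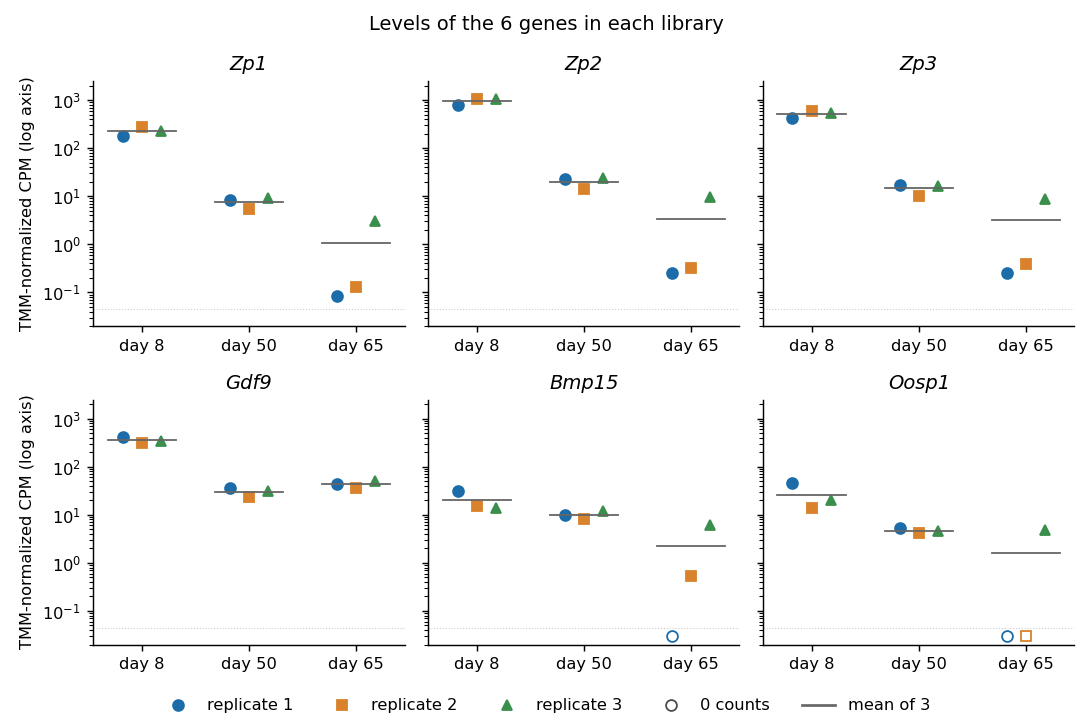
Level of each of the 6 genes in the 9 libraries, as TMM-normalized CPM on a log axis, against postnatal day; points are libraries, those at 0 counts are open symbols under the dotted line, and the horizontal bars are the means. The zona genes drop at each step, while Gdf9 at day 65 sits between 35.5 and 49.7 CPM, above its day 50 range of 23.9 to 35.3 CPM.

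Zp3, which encodes a filament glycoprotein, had 433, 603 and 544 CPM in the day 8 libraries (replicates 1 to 3). The day 50 libraries had 17.3, 9.92 and 16.4 CPM. The day 65 libraries had 0.249, 0.393 and 8.85 CPM, from 3, 6 and 154 counts. The 3 ages did not overlap, and within day 65 replicate 3 lay far above the others. Zp3 fell 36.2-fold at day 50 against day 8 (log2 fold change -5.18, SE 0.852, edgeR adjusted p = 9.75e-04). It also fell at day 65 against day 50 (log2 fold change -2.12, SE 0.82, edgeR adjusted p = 0.0488). That second call lay at the threshold and was lost on leaving out any 1 library other than day 65 replicate 3 (edgeR adjusted p between 0.0549 and 0.119). Without day 65 replicate 3 the fall was larger, -5.44 on the log2 scale (edgeR adjusted p = 5.48e-05). In whole tissue, fewer oocytes and less RNA per oocyte cannot be told apart, for this gene and for the other 5.

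Zp2, the partner of ZP3 in the filament, had the highest CPM of the 6 genes at day 8, with 783, 1075 and 1035 CPM. It had 22.8, 13.9 and 23.6 CPM at day 50, and 0.249, 0.327 and 9.49 CPM at day 65. The pattern over libraries matched that of Zp3, with no overlap between ages and with day 65 replicate 3 high. Zp2 fell 48.0-fold at day 50 against day 8 (log2 fold change -5.58, SE 0.927, edgeR adjusted p = 0.00102). The fall at day 65 against day 50 was -2.51 on the log2 scale (SE 0.867, edgeR adjusted p = 0.0313). The call was kept without day 8 replicate 2, day 8 replicate 3 or day 65 replicate 3, and lost without each of the other 6 libraries (edgeR adjusted p between 0.0508 and 0.0814). Without day 65 replicate 3 it was -6.07 (edgeR adjusted p = 4.51e-05).

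Zp1, the cross-linking component, had 183, 272 and 228 CPM at day 8 and 8.52, 5.35 and 9.28 CPM at day 50. At day 65 it had 0.0829, 0.131 and 2.99 CPM, from 1, 2 and 52 counts. Again the 3 ages did not overlap. It fell 29.5-fold at day 50 against day 8 (log2 fold change -4.88, SE 0.621, edgeR adjusted p = 2.11e-04). It fell a further 6.55-fold at day 65 against day 50 (log2 fold change -2.71, SE 0.701, edgeR adjusted p = 0.00834), and this call held without any 1 library. Day 65 replicates 1 and 2 together had 3 counts, 1.41% of the day 50 level (exact 95% interval 0.291 to 4.16%, counting error only).

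Gdf9, the gene of a ligand that folliculogenesis beyond the primary stage requires in mouse, had 413, 313 and 336 CPM at day 8. It had 35.3, 23.9 and 31.1 CPM at day 50, and 43.0, 35.5 and 49.7 CPM at day 65. Day 8 lay far above the later ages, and the lowest day 65 library lay just above the highest day 50 library. Gdf9 fell 11.8-fold at day 50 against day 8 (log2 fold change -3.55, SE 0.204, edgeR adjusted p = 1.99e-06). At day 65 against day 50 it rose slightly (log2 fold change 0.51, SE 0.188, edgeR adjusted p = 0.0412). That rise was not called without day 8 replicate 3, day 50 replicate 2, day 50 replicate 3, day 65 replicate 1 or day 65 replicate 3, with log2 fold changes of 0.37 to 0.53. It was also not called with library size as the only scaling (0.24, edgeR adjusted p = 0.313), without the filter on low counts (0.45, 0.0652) or with a trend on gene length removed (0.41, 0.0676). On the log2(TPM + 1) scale its direction turned (-0.28, limma adjusted p = 0.357), where the median of all genes was -0.56. In TPM, Gdf9 had 21.9, 22.3 and 35.1 at day 65 against 37.1, 25.1 and 33.8 at day 50, and only replicate 3 of day 65 lay within the day 50 range.

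Bmp15, whose product pairs with GDF9 in signalling to granulosa cells, had 31.3, 15.6 and 13.8 CPM at day 8. It had 9.78, 8.30 and 12.03 CPM at day 50, and 0, 0.523 and 6.09 CPM at day 65, from 0, 8 and 106 counts. Ages did not overlap, but day 8 replicate 1 had about double the level of its companions, and it is the day 8 library with the high ribosomal protein share. In TPM the day 8 libraries were closer, at 12.04, 9.94 and 8.36. The difference at day 50 against day 8 was not called (log2 fold change -1.01, SE 0.819, edgeR adjusted p = 0.355). With only the libraries of these 2 ages in the fit it was called (edgeR adjusted p = 0.0365). Nor was the difference called at day 65 against day 50 (log2 fold change -2.11, SE 0.895, edgeR adjusted p = 0.0675), except without day 65 replicate 3 (-5.10, edgeR adjusted p = 5.77e-04), with the replicate block (-2.51, edgeR adjusted p = 0.0473) or on log2(TPM + 1) (-2.14, limma adjusted p = 2.55e-04).

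Oosp1 had 44.9, 14.1 and 20.1 CPM at day 8, and 5.32, 4.12 and 4.69 CPM at day 50. At day 65 it had 0 counts in replicates 1 and 2, and 4.71 CPM, from 82 counts, in replicate 3. In CPM, day 65 replicate 3 thus stood at the day 50 level, and the other 2 had no read. In TPM, replicate 3 had 7.96, below the day 50 libraries at 13.42, 11.29 and 12.46. The difference at day 50 against day 8 was not called (log2 fold change -2.48, SE 0.963, edgeR adjusted p = 0.0632) although the libraries did not overlap. The change was -1.86 without day 8 replicate 1 (edgeR adjusted p = 0.227). It was called without any 1 of the day 65 libraries (edgeR adjusted p between 0.00201 and 0.034) and with only the 2 ages in the fit (0.00244). The difference at day 65 against day 50 was not called (log2 fold change -1.49, SE 1.03, edgeR adjusted p = 0.242). It was called on log2(TPM + 1) (-2.69, limma adjusted p = 0.0188) and without day 65 replicate 3. Day 65 replicates 1 and 2 together were at least 42.9-fold lower than day 50 and at least 240-fold lower than day 8, against a floor of 3 counts over both libraries, 0.11 CPM.

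At day 50 against day 8, 4 of the 6 genes fell and 0 rose, where 21.4% of the 17747 tested genes were called lower. Of the 6, 3 fell at day 65 against day 50, with 28.4% of all tested genes called lower, and 1 rose, with 27.5% called higher. All 6 fell at day 65 against day 8, with 32.6% of all tested genes called lower. The median log2 fold changes of the 6 were -4.22, -2.12 and -5.63 in these comparisons, against -0.04, -0.06 and -0.05 over all tested genes. The libraries of the later age all lay below those of the earlier age in 6 of the 6 genes at day 50 against day 8 (29.0% of all tested genes), in 4 at day 65 against day 50 (34.9%) and in 6 at day 65 against day 8 (34.7%). In either direction 40.8, 55.9 and 62.3% of all tested genes were called in these comparisons, which share libraries and are not independent of each other. Without the filter on low counts, the day 65 against day 50 calls of Zp1, Zp2 and Zp3 were lost (edgeR adjusted p = 0.0632, 0.146 and 0.192), as were the day 65 against day 8 calls of Bmp15 and Oosp1 (0.0859 and 0.0647). All 6 passed the filter on low counts. Wherever edgeR called 0 genes of these 6, or of the oocyte, receptor and target lists below, in a direction, 0 had an unadjusted p under 0.05 in that direction and DESeq2 and limma also called 0.

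Over the whole span, day 65 against day 8, the log2 fold changes were -7.59 for Zp1, -8.10 for Zp2 and -7.30 for Zp3 (edgeR adjusted p of 2.21e-05, 1.15e-04 and 1.21e-04). They were -10.92, -11.65 and -10.61 without day 65 replicate 3. Gdf9 fell by 3.05 on the log2 scale (SE 0.2, edgeR adjusted p = 2.36e-06), an 8.28-fold difference that was about the same without that library, at -3.17. Bmp15 fell by 3.12 (SE 0.912, edgeR adjusted p = 0.013), by 6.09 without day 65 replicate 3, and the call was lost without day 8 replicate 1 (edgeR adjusted p = 0.0514). Oosp1 fell by 3.97 (SE 1.06, edgeR adjusted p = 0.00832). Without day 65 replicate 3 its remaining day 65 libraries had 0 counts, which puts the log2 change at -7.91 or lower, and the call was kept (edgeR adjusted p = 6.91e-05). It had a change of -3.35 without day 8 replicate 1 (edgeR adjusted p = 0.0386) and -3.38 without day 65 replicate 2 (edgeR adjusted p = 0.0158).

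**Figure D2:**
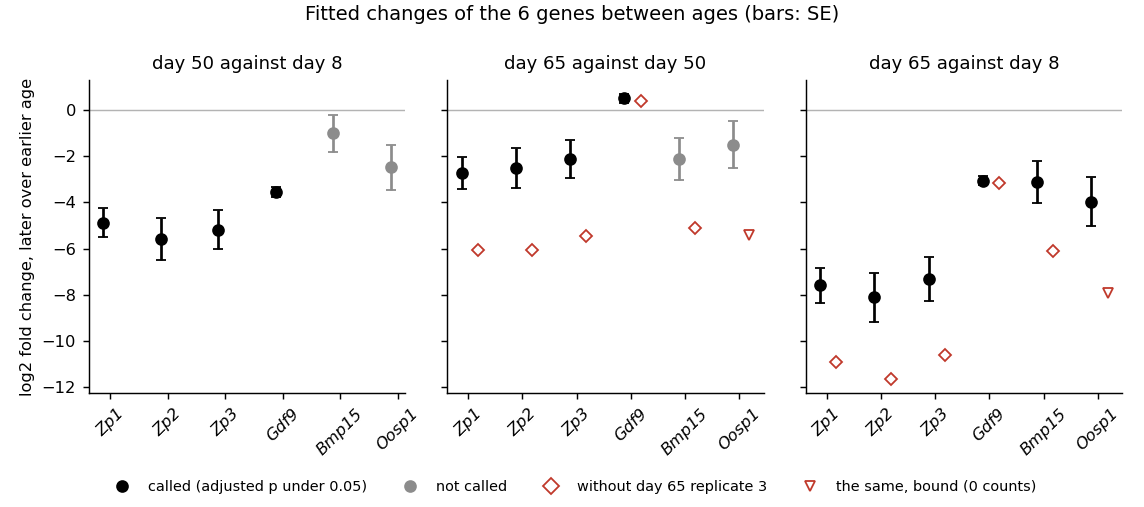
Fitted log2 fold change, later over earlier age, of the 6 genes in the 3 comparisons of ages, with bars for SE; black points passed an adjusted p of 0.05, grey points did not, and open red marks are the fits without day 65 replicate 3 (a bound for Oosp1, which has 0 counts in the remaining libraries). The 3 zona genes were at -4.88 to -5.58 at day 50 against day 8, and Gdf9 is the gene above 0 at day 65 against day 50.

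Per length, the zona genes led at day 8 and Gdf9 led at both later ages. At day 8 the order of mean TPM was Zp2 at 748 ± 288, Zp3 at 714 ± 286, Gdf9 at 327 ± 42.3, Zp1 at 202 ± 82.3, Oosp1 at 58.5 ± 23.9 and Bmp15 at 10.1 ± 1.85 (SD, n = 3). Of the neighbours in that order, Zp2 and Zp3 overlapped and the others did not. At day 50 the order was Gdf9 at 31.99 ± 6.19, Zp3 at 21.2 ± 6.36, Zp2 at 16.8 ± 4.64, Oosp1 at 12.4 ± 1.07, Zp1 at 7.30 ± 2.11 and Bmp15 at 6.00 ± 1.26 TPM. There only Gdf9 with Zp3 and Oosp1 with Zp1 did not overlap. At day 65 Gdf9 had 26.4 ± 7.49 TPM and lay above every other member in each library, and the remaining 5 overlapped one another.

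The share of Gdf9 in the summed TPM of the 6 genes was 21.3, 13.5 and 15.5% in the day 8 libraries. It was 34.4, 35.2 and 31.4% in the day 50 libraries, and 97.99, 95.02 and 56.42% in the day 65 libraries. These ranges did not overlap between ages. The 3 zona genes together held 79.3 ± 7.08% at day 8, 46.7 ± 4.05% at day 50 and 11.1 ± 13.9% at day 65 (SD, n = 3). In the day 65 libraries they held 2.01, 4.17 and 27.2%, so replicate 3 lay nearest to day 50. No test was made on these shares.

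**Figure D3:**
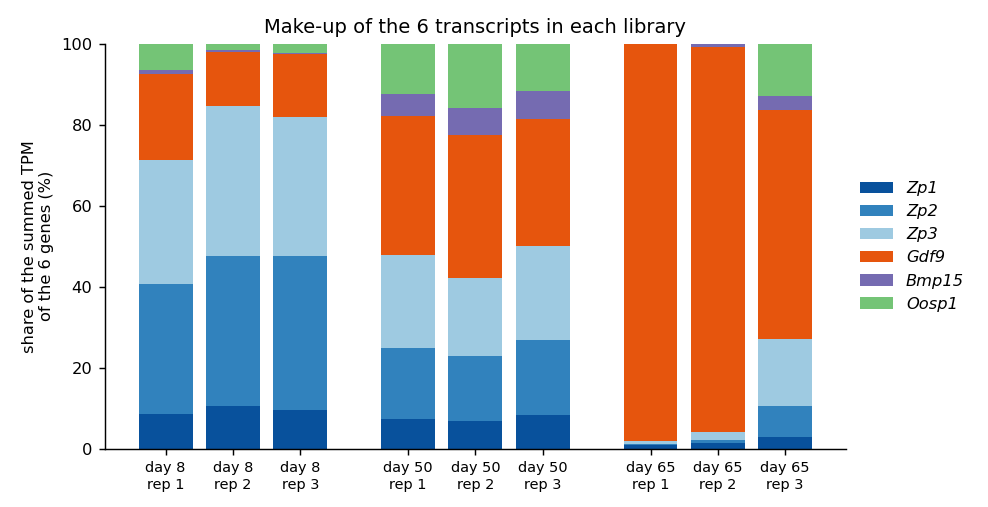
Share of each of the 6 genes in their summed TPM (percent), 1 stacked bar per library, grouped by postnatal day. Gdf9 holds between 13.5 and 21.3% at day 8, between 31.4 and 35.2% at day 50 and between 56.4 and 97.99% at day 65, while the zona share shrinks.

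Proportions among the zona genes differed between ages. The TPM ratio of Zp2 to Zp3 was 1.05, 0.998 and 1.11 at day 8, 0.763, 0.826 and 0.799 at day 50, and 0.588, 0.34 and 0.474 at day 65. Day 8 and day 50 did not overlap, while in day 65 replicates 1 and 2 the ratio rests on 3 and 5 Zp2 counts over 3 and 6 Zp3 counts, and only replicate 3, with 165 and 154 counts, carries depth. The ratio of Zp1 to Zp3 was 0.282, 0.287 and 0.279 at day 8, and 0.325, 0.356 and 0.357 at day 50. At day 65 it was 1.06, 0.745 and 0.169, of which the values of replicates 1 and 2 rest on 1 and 2 Zp1 counts. Between the ligands, Gdf9 exceeded Bmp15 by 23.1, 35.1 and 42.3 times in TPM at day 8, and by 6.36, 5.20 and 4.61 times at day 50. At day 65 the ratio was 117 in replicate 2 and 15.6 in replicate 3, and replicate 1 had 0 Bmp15 counts. These ratios were not tested.

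The deposited gene length, which RSEM weights by the transcripts it estimates, showed which transcripts carry these values. For Gdf9, whose transcripts are 1793, 382 and 429 bases long, the length was 1763.1, 1793 and 1636.62 bases in the day 65 libraries, so the day 65 reads were assigned mostly to the 1793 base transcript. For Zp1 the length in day 65 replicates 1 and 2 was 481 bases, that of its short transcript, against 1963 bases in replicate 3 and in all day 50 libraries. The TPM of Zp1 in those day 65 libraries is therefore raised relative to its counts. The nearest gene to Gdf9, Uqcrq, a subunit of respiratory complex III, had 1014, 552 and 608 CPM at day 65 against 112, 125 and 102 CPM at day 50. The sources used here do not give the strand setting of the counting, and the part of Uqcrq in the Gdf9 reading was not tested.

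Set beside day 50, the 3 day 65 libraries divided the same way for most oocyte transcripts. As a percent of the day 50 mean, the median over the 6 genes was 1.16 in replicate 1, 2.20 in replicate 2 and 60.8 in replicate 3. For 19 other oocyte genes the medians were 2.39, 5.27 and 65.6%. Replicate 3 was the highest day 65 library in 6 of the 6 and in 15 of the 19, against 31.0% of all tested genes. Gdf9 is the only 1 of the 6 that replicates 1 and 2 held at over 10% of the day 50 mean, at 143 and 118%, with 165% in replicate 3. Among the 19 other oocyte genes, 5 did so too. Dazl, an RNA-binding protein of germ cells, stood at 386, 519 and 341% and Tle6, of the subcortical maternal complex, at 369, 237 and 306%. Npm2, a histone chaperone of the egg, stood at 70.2, 59.5 and 158%, Ddx4, a germ cell RNA helicase, at 82.9, 53.5 and 62.7%, and Ooep, also of the subcortical maternal complex, at 16.3, 32.1 and 50.5%.

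**Figure D4:**
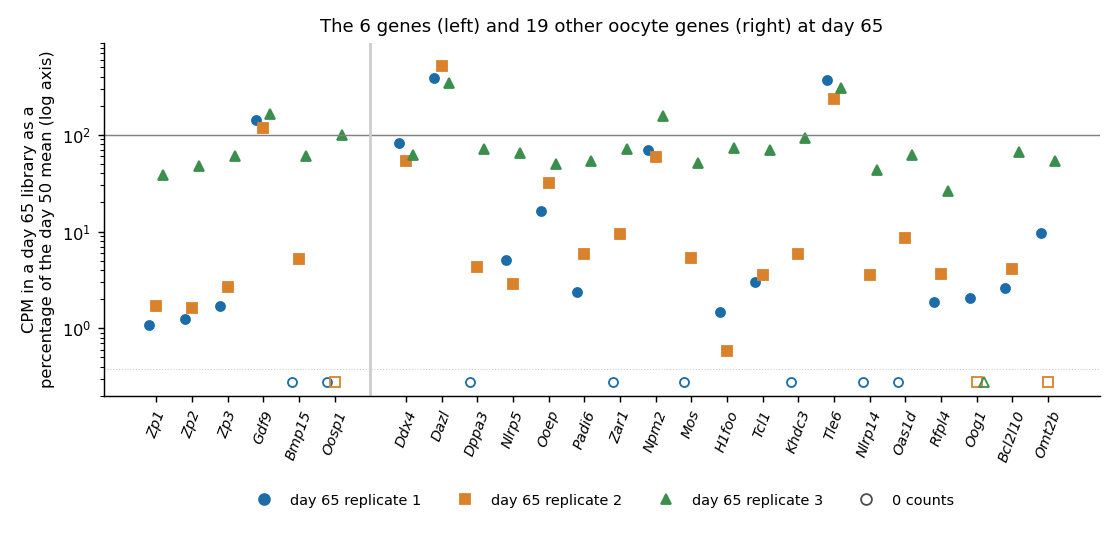
Level of the 6 genes and of 19 other oocyte genes in each day 65 library, as a percent of the gene's day 50 mean on a log axis; each point is 1 gene in 1 library, and genes at 0 counts are open symbols under the dotted line. Replicate 3 holds most genes near the 65.6% median of the other oocyte genes, while replicates 1 and 2 hold most under 10%, and Gdf9, Dazl and Tle6 lie above 100% in all 3.

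Over the 9 libraries, the genes whose level followed each member most closely were found by Pearson's r of log2(CPM + 0.5) among 13650 tested genes, as a description. The points share their libraries and their ages, and most of the variation lies between ages. Astl, which encodes the egg protease ovastacin that cleaves ZP2 after fertilization, and Tcl1 came first for both Zp2 and Zp3 (r = 0.999 and 0.998). Astl had 96.1 CPM at day 8, 4.52 at day 50 and 1.03 at day 65, with 0 counts in day 65 replicates 1 and 2. Zp1 was closest to Esrrb (0.998) and Padi6 (0.997), Bmp15 to Bcl2l10 (0.985), and Oosp1 to H1foo (0.991), the oocyte linker histone. For Gdf9 the closest were Adcy1 (0.994), Chek1 (0.993) and Car8 (0.992), and each of these was present in all 3 day 65 libraries. Chek1, a cell cycle checkpoint kinase, had 12.6, 13.8 and 13.6 CPM there. Adcy1 had 0.415, 0.327 and 0.402 CPM, and Car8 0.663, 0.654 and 0.632 CPM. Those 2 were not far above the 0.172 to 0.249 CPM that a count of 0 allows in a day 65 library. Among the members, r was at least 0.998 between any 2 zona genes, 0.956 between Bmp15 and Oosp1, and 0.532 between Gdf9 and Bmp15.

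Other oocyte genes also fell after day 8. Of 19 such genes, 18 fell at day 50 against day 8 and 0 rose (median log2 fold change -3.66). Among all tested genes, 21.4% were called lower and 19.5% higher in that step. Npm2 averaged 4.84 ± 0.774 CPM at day 50, against 217 ± 86.0 CPM at day 8 (SD, n = 3; log2 fold change -5.49, SE 0.416, edgeR adjusted p = 9.14e-06). By day 65, against day 50, 8 of 19 had fallen and 2 had risen, with a median of -1.92. Of all tested genes 28.4% were called lower and 27.5% higher in that step. That count of 8 became 3 to 5 without any 1 of the day 50 libraries, day 65 replicate 1 or day 65 replicate 2, and 15 without day 65 replicate 3. It was 2 without a filter on low counts, 4 with DESeq2, 13 with a trend on gene length removed and 15 on log2(TPM + 1). The 2 that rose were Dazl and Tle6, and Dazl averaged 15.2 ± 3.38 CPM at day 65, against 3.66 ± 1.25 CPM at day 50 (SD, n = 3; log2 fold change 2.05, SE 0.249, edgeR adjusted p = 1.35e-04). On log2(TPM + 1) the change of Dazl was 1.00 (limma adjusted p = 0.00768). All 19 fell at day 65 against day 8, beside 32.6% of all tested genes.

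Genes of the egg surface and of other oocyte-secreted proteins were mostly lower as well. At day 50 against day 8, 7 of 8 fell, beside 21.4% of all tested genes. The median log2 fold change of the 8 was -2.73. Astl averaged 4.52 ± 0.776 CPM at day 50, against 96.1 ± 2.67 CPM at day 8 (SD, n = 3; log2 fold change -4.41, SE 0.701, edgeR adjusted p = 8.02e-04). Oosp2, a relative of Oosp1, averaged 0.575 ± 0.187 CPM at day 50, against 9.97 ± 6.10 CPM at day 8 (log2 fold change -4.09, SE 0.731, edgeR adjusted p = 0.00153). Its change was -3.48 without day 8 replicate 1. Of the 8, 3 fell at day 65 against day 50, beside 28.4% of all tested genes. Without day 65 replicate 3 or on log2(TPM + 1) 5 did, but 1 did with only the 2 ages in the fit. The median there was -1.84, or -1.54 with Fgf8 and Fgf10, at 0 counts in every day 65 library, set at their bound.

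Among 9 oocyte regulators, 7 fell at day 50 against day 8, beside 21.4% of all tested genes. The median log2 fold change of the 9 was -5.98. Ybx2, an RNA-binding protein that stores maternal transcripts, averaged 3.19 ± 0.213 CPM at day 50, against 153 ± 33.6 CPM at day 8 (SD, n = 3; log2 fold change -5.58, SE 0.305, edgeR adjusted p = 1.99e-06). Of the 9, 3 fell at day 65 against day 50, beside 28.4% of all tested genes, or 1 without day 50 replicate 1. In that step 1 rose, beside 27.5% of all tested genes. The 3 that fell were Lhx8, Taf4b and Foxo3. With a trend on gene length removed Taf4b changed by 0.25 and Foxo3 by 0.18, with neither called (edgeR adjusted p = 0.276 and 0.474). The 1 that rose was Ybx2, at 10.7 ± 3.85 CPM at day 65 (log2 fold change 1.74, SE 0.282, edgeR adjusted p = 6.16e-04), a call absent on log2(TPM + 1) (0.74, limma adjusted p = 0.0874). Of the 2 activators named above, Figla averaged 61.4 ± 10.7 CPM at day 8 and was nearly absent later, with 0.125 ± 0.11 CPM at day 50 and 0.16 ± 0.139 CPM at day 65 (SD, n = 3). Nobox also fell but stayed detected, with 151 ± 32.4 CPM at day 8, 3.34 ± 1.10 at day 50 and 1.61 ± 1.68 at day 65. Its change at day 65 against day 50 was not called (log2 fold change -0.97, edgeR adjusted p = 0.162).

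The list of receptors and SMADs of GDF9 and BMP15 signalling holds genes that act in the somatic cells. Several rose at the step at which the zona genes and Gdf9 fell. In whole tissue, a change in cell numbers and a change in RNA per cell cannot be told apart, for these genes and for the target genes below. At day 50 against day 8, 6 of 13 rose, with 19.5% of all tested genes called higher, and 1 fell, with 21.4% called lower. Among the 6 were Smad6 and Smad7 (log2 fold changes 1.43 and 1.38), which encode inhibitory SMADs. Tgfbr1, Smad2 and Smad3 were not called (edgeR adjusted p = 0.0539, 0.213 and 0.16). Bmpr2, the shared type II receptor, averaged 631 ± 148 CPM at day 50, against 164 ± 32.9 CPM at day 8 (SD, n = 3; log2 fold change 1.94, SE 0.22, edgeR adjusted p = 8.31e-05). Bmpr1b, the type I receptor for BMP15, averaged 183 ± 11.4 CPM at day 50, against 34.0 ± 3.28 CPM at day 8 (log2 fold change 2.43, SE 0.172, edgeR adjusted p = 4.83e-06). The 1 that fell, Smad5, changed by -0.38 (edgeR adjusted p = 0.0488), a call lost without any 1 of 7 libraries (all but day 8 replicate 1 and day 65 replicate 1).

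Of the 13 receptors and SMADs, 8 fell at day 65 against day 50, with 28.4% of all tested genes called lower, and 0 rose. With a trend on gene length removed 2 rose, and on log2(TPM + 1) 13 fell. Tgfbr1, the type I receptor for GDF9, averaged 38.5 ± 3.47 CPM at day 65, against 120 ± 9.85 CPM at day 50 (SD, n = 3; log2 fold change -1.64, SE 0.125, edgeR adjusted p = 1.95e-05). Its change was -0.83 with a trend on gene length removed, still called. Smad9, which carries BMP signals, averaged 0.542 ± 0.343 CPM at day 65, against 13.5 ± 4.43 CPM at day 50 (log2 fold change -4.56, SE 0.465, edgeR adjusted p = 5.96e-05), and changed by -5.19 without day 65 replicate 3. Over the whole span 3 of 13 rose, with 29.7% of all tested genes called higher at day 65 against day 8. Bmpr1b was among the 3 (log2 fold change 2.05, SE 0.17, edgeR adjusted p = 7.14e-06). Over that span 6 of the 13 fell, with 32.6% of all tested genes called lower. With a trend on gene length removed 5 rose and 3 fell, and on log2(TPM + 1) 1 rose.

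GDF9 and BMP15 are made as proproteins that furin-type convertases cleave. Pcsk6, a convertase, averaged 30 ± 4.49 CPM at day 50, against 307 ± 138 CPM at day 8 (SD, n = 3; log2 fold change -3.36, SE 0.344, edgeR adjusted p = 5.45e-05). It fell again at day 65, to 7.16 ± 1.82 CPM (log2 fold change against day 50 -2.06, SE 0.344, edgeR adjusted p = 8.15e-04). Pcsk5 went the other way, at 155 ± 31.2 CPM at day 50, against 29.4 ± 12.6 CPM at day 8 (log2 fold change 2.40, SE 0.303, edgeR adjusted p = 1.91e-04). Fst, the ligand-binding follistatin, averaged 403 ± 16.4 CPM at day 50, against 74.8 ± 17.9 CPM at day 8 (log2 fold change 2.43, SE 0.238, edgeR adjusted p = 3.42e-05). Of the 4 genes in this group, 2 rose and 1 fell at day 50 against day 8, and 1 rose and 1 fell at day 65 against day 50. Among all tested genes, 19.5% were called higher and 21.4% lower in the first step, and 27.5% and 28.4% in the second. The counts of the second step lie near those shares. The rise at day 65 against day 50 was that of Pcsk5 (log2 fold change 1.02, edgeR adjusted p = 0.0126), which was not called without day 50 replicate 2 (edgeR adjusted p = 0.0528). On log2(TPM + 1), 0 rose and 3 fell in that step.

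Granulosa and cumulus cell genes known in mouse to be raised by oocyte-secreted factors formed another list, of 18 genes. At day 50 against day 8, 11 of these rose and 0 fell, beside 19.5% and 21.4% of all tested genes (median log2 fold change of the list 1.17). Grem1, a secreted BMP antagonist, averaged 70.2 ± 20.4 CPM at day 50, against 1.10 ± 0.721 CPM at day 8 (SD, n = 3; log2 fold change 6.03, SE 0.435, edgeR adjusted p = 7.16e-06). Cyp51, of cholesterol synthesis, averaged 92.4 ± 2.69 CPM at day 50, against 37.4 ± 5.01 CPM at day 8 (log2 fold change 1.31, SE 0.131, edgeR adjusted p = 3.87e-05). Of the 18, 9 rose and 3 fell at day 65 against day 50, beside 27.5% and 28.4% of all tested genes. On log2(TPM + 1) 0 rose. The 3 that fell became 1 without any 1 of the day 50 libraries, day 8 replicate 3, day 65 replicate 2 or day 65 replicate 3, and with a trend on gene length removed. Amh, an early granulosa hormone, was among the genes that fell, at 13.7 ± 11.2 CPM at day 65, against 97.0 ± 10.8 CPM at day 50 (log2 fold change -2.81, SE 0.505, edgeR adjusted p = 0.00121), or -3.75 without day 65 replicate 3.

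Of 4 genes known in mouse to be lowered by oocyte-secreted factors, 3 rose and 1 fell at day 50 against day 8. Among all tested genes, 19.5% were called higher and 21.4% lower in that step. Kitl, the ligand that granulosa cells offer to the oocyte's KIT receptor, averaged 284 ± 44.3 CPM at day 50, against 156 ± 12.9 CPM at day 8 (SD, n = 3; log2 fold change 0.86, SE 0.206, edgeR adjusted p = 0.00734). Of the 4, 3 fell at day 65 against day 50, beside 28.4% of all tested genes. Kitl averaged 20.4 ± 5.92 CPM at day 65 (log2 fold change against day 50 -3.80, SE 0.231, edgeR adjusted p = 7.94e-06). That change was -3.10 with a trend on gene length removed and -4.76 on log2(TPM + 1), and was called in both. The count of 3 became 1 without day 50 replicate 1, day 65 replicate 1 or day 65 replicate 2, and without a filter on low counts.

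**Figure D5:**
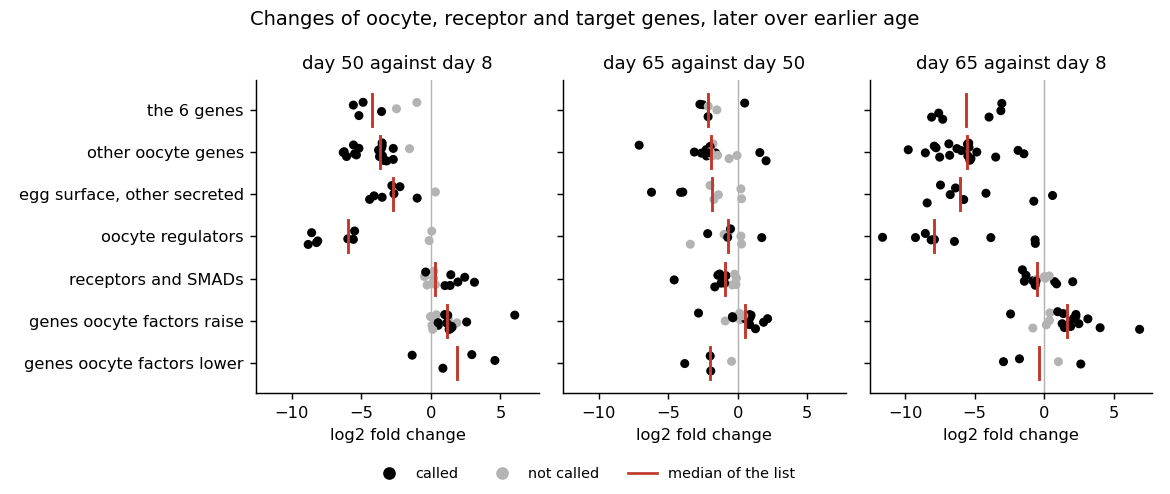
Fitted log2 fold change, later over earlier age, of each tested gene in the 6 members and in the fixed oocyte, receptor and target lists, in the 3 comparisons of ages; each point is a gene, black where the adjusted p was under 0.05 and grey otherwise, and the red line is the list's median. The oocyte lists have medians of -2.73 to -5.98 at day 50 against day 8, with Bmp6 (0.32) and Foxo3 (0.06) above 0. Receptors and SMADs lie on both sides of 0, with medians of 0.32 at day 50 against day 8 and -0.93 at day 65 against day 50.

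Markers of the other ovarian cells were read over the same steps, and not every list moved at both. The summed TPM of 9 granulosa markers ran over 702 to 787 at day 8, over 6318 to 7342 at day 50 and over 1633 to 2131 at day 65. That of 7 theca and luteal markers was 166 to 323, 2979 to 3324 and 430 to 778, and that of 7 stroma and vessel markers 812 to 1164, 1563 to 2152 and 750 to 1507 at the same ages. The 7 blood and macrophage markers summed to 2093 to 4600, 442 to 762 and 2070 to 6113 TPM, and the 6 surface epithelium markers to 567 to 1485, 713 to 1046 and 145 to 294 TPM. No marker of these 5 lists was at 0 in any library, while 19 other oocyte genes had sums between 3881 and 5657 TPM at day 8, between 200 and 275 at day 50 and between 143 and 259 at day 65. At day 50 against day 8, 7 of 9 granulosa markers rose and 1 fell, and at day 65 against day 50, 1 rose and 4 fell. Among all tested genes, 19.5% were called higher and 21.4% lower in the first step, and 27.5% and 28.4% in the second. Of the 7 stroma and vessel markers, 3 rose and 0 fell at day 65 against day 50, although their TPM sums were lower. On log2(TPM + 1), where the median change of all genes was -0.56, 1 of them rose and 4 fell. At day 50 against day 8, 0 of 6 surface epithelium markers were called, and 1 of 7 blood and macrophage markers rose and 1 fell. The part of these shifts in the levels of the 6 genes, and of the receptor, convertase and target genes, was not tested.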

How the data were processed

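RNA-seq was made from total RNA of 9 ovary libraries with an mRNA library kit, per the labels' protocols, and each library has 1 table of 55487 gene rows. Per the file headers, the authors deposited RSEM expected counts (reads shared between genes and transcripts, not normalized), TPM (per effective length, scaled to the sum over genes) and FPKM, which was not used. The build is GRCm38 (mm10), per the submitters' processing notes; the aligner, RSEM version and strand setting: not given in the sources used here. Groups follow the labelled age.

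The deposited expected counts, rounded to whole numbers, were fitted with edgeR 4.0.16 in R 4.3.3. After filterByExpr, 17747 genes remained, and all 9 libraries entered 1 model with TMM factors and a term per age (glmQLFit robust, glmQLFTest, two-sided). The threshold for a call was 0.05 on p-values adjusted by Benjamini-Hochberg over all tested genes, and SE is the log2 fold change divided by the root of F. Alternatives used DESeq2 1.42.0, limma 3.58.1 on log2(TPM + 1), other scalings and filters, trends on gene length and GC content, a replicate block, and fits without each library. Scripts were tested on simulated data. Reads carry no molecular identifiers, so intervals and floors cover counting error only. GENCODE M21 gave transcripts, strand and neighbours, and the promoter table used here (RefSeq, GRCm38.p6) matched 3 of the 6 genes.

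The 6 genes, the gene lists and the tests were chosen with earlier results of these data known. Named were the 6 genes, up to 4 called genes per list and comparison by smallest p in the list's main direction, the first in the other direction, and the 3 genes most like each member with a mean of at least 1 CPM. The text gives a selection, and Figla, Nobox, and Tle6, Npm2, Ddx4, Ooep and Dazl beside the day 65 libraries were named after their values were seen. A test of the shares between ages was planned and is not given here.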

Additional observations from a re-analysis of the deposited data

How the results depend on the processing

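Of 318 log2 fold changes of the 6 genes under the alternatives, 274 kept their direction and side of the threshold, 33 lost the call, 10 gained it and 1 reversed. The reversal was Gdf9 at day 65 against day 50 on log2(TPM + 1), at -0.28. The cause was not tested. In that comparison the count of members called higher, 1, was 0 with library size as the only scaling, without a filter, with the gene length trend removed and on log2(TPM + 1), and 0 to 1 without each library. The count called lower, 3, was 1 with library size only, 0 without a filter, 1 with DESeq2 and 5 on log2(TPM + 1), and 1 to 5 without each library. Over all genes, that comparison called 4883 higher and 5033 lower, against 1702 and 8326 on log2(TPM + 1), 3407 and 6183 with library size only and 5086 and 3668 with the length trend removed. The median log2 fold change of all genes was -0.56 on log2(TPM + 1) and -0.31 with library size only. At day 65 against day 8, 5267 were called higher and 5790 lower, against 2442 and 7934 on log2(TPM + 1), 3701 and 6946 with library size only and 5983 and 4997 with the length trend removed. DESeq2 gave no adjusted p for Zp2 and Bmp15, which were left out of its counts. Replicate numbers did not pair the libraries (correlations of deviations between same-numbered libraries -0.0325 to 0.0479). The replicate block gave 4 members lower at day 65 against day 50 in place of 3, with Bmp15 added at -2.51. Members with 0 to 8 counts in day 65 replicates 1 and 2 are limited by depth, and 3 libraries per age with 1 unlike the others limit every comparison with day 65.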
